A study of Mus musculus with 8 samples.

Results

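Genes of brain endothelium, of its barrier and of the mural cells around it were followed in the corpus callosum, a white matter tract, after 1 week of cuprizone. Of 34 genes named for these cells, 32 had a transcript cluster annotated with exactly that gene symbol and were measured, out of 19938 genes measured in this way. They were 12 of 14 genes of endothelial identity, 8 of 8 tight-junction and transporter genes and 12 of 12 mural genes. Ly6c1 and Ly6a had no such cluster and were not analysed here. Each measured gene had a single cluster of this kind.

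The 8 arrays came from 4 mice fed cuprizone at 0.25% for 1 week and from 4 mice on normal diet, the controls. All were wild-type C57BL/6 males aged 8 weeks per the labels, and the arrays of each diet are labelled as biological replicates 1 to 4. Cuprizone binds copper and, when eaten, kills oligodendrocytes. Mice were perfused with cold saline buffer before the tract was dissected by hand, so that the RNA came from whole tissue with all its cell types. Levels are deposited log2 values, and 1 unit is a doubling. In such tissue, fewer cells of a type and less RNA per cell cannot be told apart, and levels of different genes on an array cannot be set against each other.

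Brain capillary endothelial cells are joined by tight junctions built from claudins and occludin and tied to the actin skeleton by zonula occludens proteins. They carry nutrients inward and drugs outward through transporters, and together these form the blood-brain barrier. Pericytes lie on capillaries inside the basement membrane, and smooth muscle cells with a contractile skeleton wrap arterioles. Many smooth muscle genes are switched on by serum response factor, which binds the CArG box, a motif of 10 letters with CC and GG at its ends and 6 letters of A or T between them.

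After 1 week of cuprizone, 3 of the 32 genes were higher and 0 lower at an adjusted p under 0.05 in limma, a linear model fitted over 23410 gene-named clusters. They were the actin-binding genes Tagln and Cald1, counted with the mural genes, and the junction scaffold Tjp1. The 3 genes are 9.38% of those measured, against 8.22% of all clusters called in either direction, 4.71% higher and 3.52% lower. In limma 11 of the 32 had an unadjusted p under 0.05, which 20.8% of all clusters had. The 32 log2 fold changes of cuprizone minus control lay between -0.34 and 0.44, with a median of -0.02, against -0.00742 over all clusters. The median size of the change, without its sign, was 0.11, against 0.08 over all clusters. For 30 of the 32 genes the 95% interval of the change lay inside a 1.5-fold change in either direction, as it did for 94.8% of all clusters. The 2 exceptions were Tagln and the endothelial gene Itm2a.

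**Figure D1:**
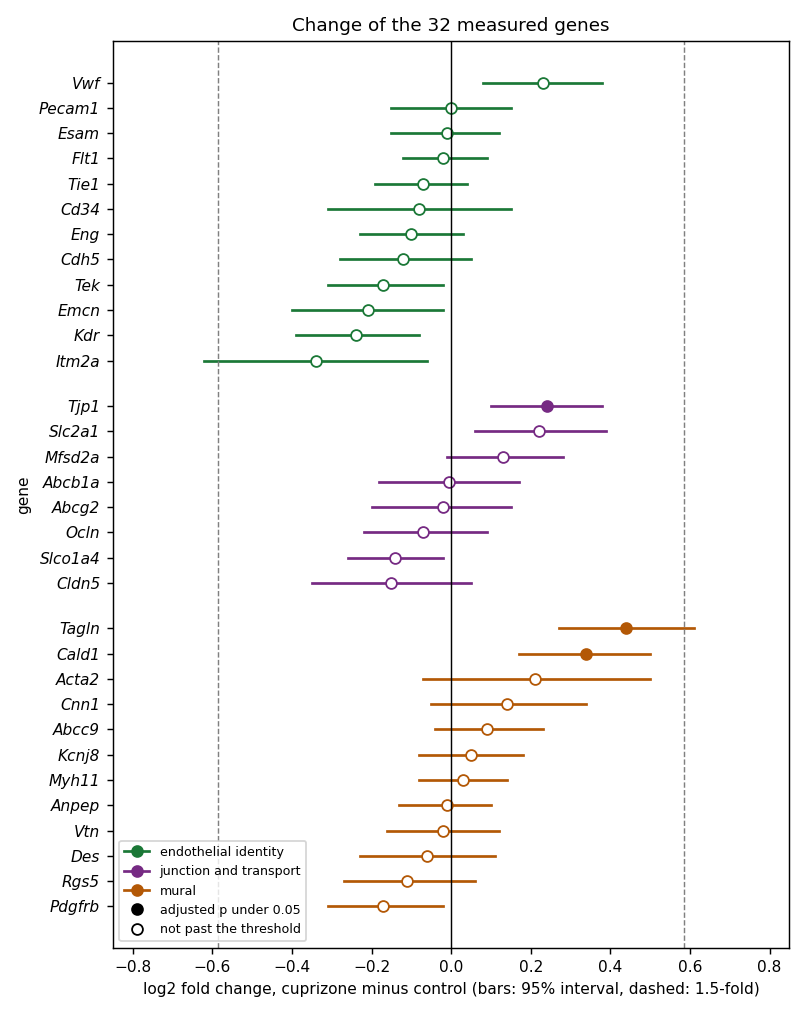
Log2 fold change of cuprizone minus control for the 32 measured genes (horizontal axis, bars for the 95% limma interval, not adjusted for the number of genes), by group. Filled points mark Tagln, Cald1 and Tjp1, the genes past the adjusted threshold, and the dashed lines mark a 1.5-fold change.

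The promoters of 2 contractile genes are shown because Cald1 passed the test and Acta2 did not. They are the 250 bases before each annotated start in RefSeq, on GRCm38.p6, written 5′ to 3′ on the strand of the gene. Capitals mark CArG-like matches, in which at most 1 of the 6 inner letters is C or G. Acta2 lies on the minus strand and its window is chr19:34255374-34255623. Cald1 lies on the plus strand, with an upstream start at chr6:34598254-34598503 and a downstream start at chr6:34709194-34709443.
Acta2: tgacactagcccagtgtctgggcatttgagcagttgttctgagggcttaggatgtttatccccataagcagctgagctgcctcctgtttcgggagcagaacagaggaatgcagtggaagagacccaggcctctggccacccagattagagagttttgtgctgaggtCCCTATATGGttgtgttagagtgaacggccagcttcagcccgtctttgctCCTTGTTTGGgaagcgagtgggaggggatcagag
Cald1, upstream start: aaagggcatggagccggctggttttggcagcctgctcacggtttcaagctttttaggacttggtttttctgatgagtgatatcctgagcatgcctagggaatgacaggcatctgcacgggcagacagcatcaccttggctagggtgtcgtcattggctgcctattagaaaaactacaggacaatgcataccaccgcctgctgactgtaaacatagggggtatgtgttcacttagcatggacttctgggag
Cald1, downstream start: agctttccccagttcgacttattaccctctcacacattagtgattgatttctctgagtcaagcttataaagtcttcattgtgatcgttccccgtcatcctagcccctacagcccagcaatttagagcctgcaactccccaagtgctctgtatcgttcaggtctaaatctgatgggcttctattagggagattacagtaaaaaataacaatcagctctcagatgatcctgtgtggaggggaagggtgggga

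The Acta2 window held 2 CArG-like matches, CCCTATATGG at 84 to 75 bases and CCTTGTTTGG at 34 to 25 bases before the annotated start, and neither Cald1 window held any. The motif reads the same on both strands. Promoters were at hand for 25 of the 32 genes, 29 windows in all, and 4 of those genes were contractile ones, Acta2, Cald1, Cnn1 and Des. No promoter was at hand for the called gene Tagln or for Myh11, so neither was searched. No window of the 25 genes held a CArG box with all 6 inner letters A or T, which 1.47% of 32851 promoters held. The relaxed form, chosen after the strict one had given no match, was in 5 of the 29 windows (17.2%), each of another gene, and in 8.59% of all promoters. Beside Acta2 these genes were Eng, Kdr, Slco1a4 and Ocln. These matches describe letters in a window and not bound sites, and the array does not tell which Cald1 start was used.

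The mural genes held 2 of the 3 calls. Of 12 measured, 2 were higher and 0 lower (16.7% called, against 8.22% of all clusters), with a median log2 fold change of 0.04. Both called genes were listed among the 6 contractile genes, of which the other 4 were not called. Tagln (transcript cluster 10593123), which encodes transgelin, a small actin-binding protein of smooth muscle, had log2 levels of 7.38, 7.32, 7.44 and 7.33 on the cuprizone arrays of replicates 1 to 4, against 7.02, 7.10, 6.85 and 6.76 on the control arrays. The groups did not overlap, the cuprizone arrays lay close together, and control replicates 3 and 4 were the lowest of all. Its mean was 7.37 ± 0.06 with cuprizone and 6.93 ± 0.16 in controls (SD, n = 4 each), 1.35-fold higher (log2 fold change 0.44 ± 0.08, SE, limma adjusted p = 0.00496). It passed the threshold in all 17 alternative settings that tested it, with adjusted p between 0.00295 and 0.0191. The setting limited to clusters above the median cluster left Tagln out, as its mean level was not above that median.

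Cald1 (transcript cluster 10537184) encodes caldesmon, which binds actin and myosin and has a smooth muscle form and a form found in many other cells. Its log2 levels were 8.27, 8.01, 8.24 and 8.05 on the cuprizone arrays, against 7.84, 7.91, 7.73 and 7.74 on the control arrays. The groups did not overlap, and cuprizone replicates 1 and 3 stood above replicates 2 and 4. The change was 1.26-fold (log2 0.34 ± 0.07, SE, limma adjusted p = 0.0166). The call was lost without cuprizone replicate 3 (adjusted p = 0.0548), without control replicate 3 (0.0526) and without control replicate 4 (0.0556), and it held in 15 of 18 alternatives.

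The other 4 contractile genes did not pass. Acta2, the smooth muscle actin, had log2 levels of 9.17, 9.21, 9.71 and 9.10 on the cuprizone arrays, against 9.07, 9.17, 9.26 and 8.86 on the control arrays. Cuprizone replicate 3 was far above the other 7 arrays, which overlapped between the diets, and the log2 difference was 0.21, with a 95% interval from -0.07 to 0.50 (limma adjusted p = 0.416). Cnn1, the actin-binding calponin of smooth muscle, had levels of 6.37, 6.05, 6.32 and 6.06 with cuprizone and of 6.01, 6.21, 6.08 and 5.93 in controls. As for Cald1, cuprizone replicates 1 and 3 were the higher ones, but the groups overlapped (log2 0.14, 95% interval -0.05 to 0.34). Myh11, the smooth muscle myosin heavy chain, differed by 0.03 on the log2 scale (-0.08 to 0.14) and Des, the intermediate filament desmin, by -0.06 (-0.23 to 0.11). The 6 contractile genes had a median change of 0.18, and their mean, set against the control mean, was 0.19, 0.13, 0.30 and 0.10 on the cuprizone arrays and -0.01, 0.10, 0.00974 and -0.09 on the control arrays. The lowest cuprizone array and control replicate 2 thus stood at the same value.

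None of the 6 pericyte genes was called, where 8.22% of all clusters were. Their changes lay between -0.17 and 0.09, with a median of -0.01, and their means on the arrays overlapped (-0.09 to 0.02 with cuprizone and -0.04 to 0.06 in controls). The smallest p was that of Pdgfrb, the receptor through which endothelial PDGF-B recruits pericytes. It had log2 levels of 8.42, 8.62, 8.34 and 8.42 with cuprizone, against 8.65, 8.59, 8.62 and 8.61 in controls, a difference of -0.17 with a 95% interval from -0.31 to -0.02 (limma adjusted p = 0.166). Cuprizone replicate 2 lay among the controls and the other 3 cuprizone arrays below them, and without that array the gene was called lower (adjusted p = 0.0423). Rgs5, a regulator of G protein signalling in pericytes, differed by -0.11 (-0.27 to 0.06). Abcc9 and Kcnj8, the paired subunits of the potassium channel of pericytes, differed by 0.09 (-0.04 to 0.23) and 0.05 (-0.08 to 0.18). Vtn, the matrix protein vitronectin, differed by -0.02, and Anpep, the aminopeptidase CD13, by -0.01.

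**Figure D2:**
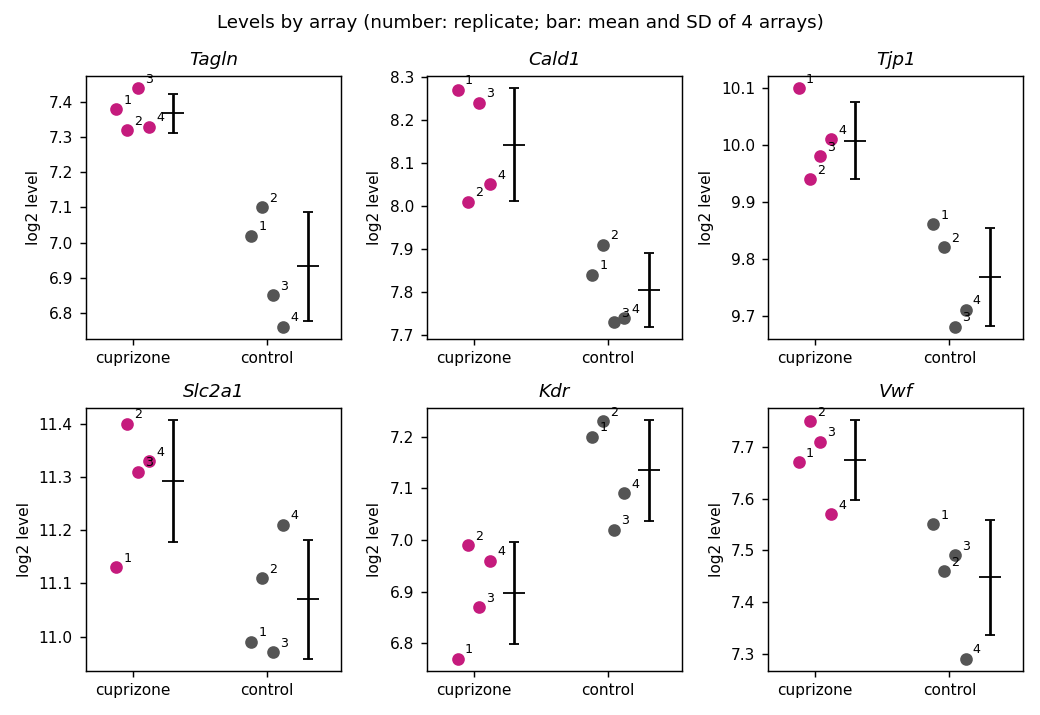
Log2 levels of Tagln, Cald1, Tjp1, Slc2a1, Kdr and Vwf on each array (vertical axis, not starting at 0), cuprizone left of control, with the replicate number beside each point and the mean and SD of 4 arrays as a bar. Cuprizone and control points do not overlap for Tagln, Cald1, Tjp1, Kdr and Vwf and do for Slc2a1.

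Among the junction and transporter genes 1 of 8 was higher and 0 lower (12.5% called, against 8.22% of all clusters), with a median of -0.01. In so short a list this is 1 gene. Tjp1 (transcript cluster 10564343) encodes zonula occludens 1, which links claudins and occludin to actin and is also made by cells outside vessels. Its log2 levels were 10.10, 9.94, 9.98 and 10.01 on the cuprizone arrays, against 9.86, 9.82, 9.68 and 9.71 on the control arrays. The groups did not overlap, with control replicates 1 and 2 nearest to the cuprizone arrays. It was 1.18-fold higher (log2 0.24 ± 0.06, SE, limma adjusted p = 0.0365), and the call held in 9 of 18 alternatives. It was lost without cuprizone replicate 1 (adjusted p = 0.0979), 3 (0.0675) or 4 (0.0753), without control replicate 2 (0.0592), 3 (0.0996) or 4 (0.102), and with each array centred on its median (0.0578).

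The membrane proteins of the tight junction did not pass. Cldn5, the main claudin of brain endothelium, had log2 levels between 8.75 and 9.04 on the cuprizone arrays, against 8.91 to 9.23 on the control arrays. Cuprizone replicates 1 and 4 were below every control and replicates 2 and 3 among them (log2 -0.15, 95% interval -0.35 to 0.05, limma adjusted p = 0.412). Ocln, occludin, differed by -0.07 (-0.22 to 0.09).

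Transporters that bring nutrients in and pumps that export drugs were likewise not called. Slc2a1, the glucose transporter GLUT1, had log2 levels of 11.13, 11.40, 11.31 and 11.33 with cuprizone, against 10.99, 11.11, 10.97 and 11.21 in controls. Only cuprizone replicate 1 overlapped with the controls, and the difference was 0.22 with a 95% interval from 0.06 to 0.39 (limma adjusted p = 0.105). Mfsd2a, which takes up omega-3 lysolipids and restrains vesicle transport across the endothelium, differed by 0.13 (-0.01 to 0.28). Slco1a4, an organic anion transporter, had log2 levels of 9.15, 9.21, 9.12 and 9.08 with cuprizone, against 9.32, 9.27, 9.33 and 9.21 in controls. Cuprizone replicate 2 and control replicate 4 met when rounded, and the unrounded values did not overlap. The log2 difference was -0.14 ± 0.05 (SE, limma adjusted p = 0.155). The efflux pumps Abcb1a (P-glycoprotein) and Abcg2 differed by -0.00586 (-0.18 to 0.17) and -0.02 (-0.20 to 0.15).

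Of the 12 measured genes of endothelial identity, 0 were called in either direction by limma, where 8.22% of all clusters were. In limma 5 of the 12 had an unadjusted p under 0.05, against 20.8% of all clusters. Their median log2 fold change was -0.09, and 11 of the 12 were below 0, as were 52.6% of all clusters. Some of these lay close to 0, with Pecam1 at -0.000466, Esam at -0.01 and Flt1 at -0.02. The sign turned for Pecam1, Esam and Cd34 when certain single arrays were left out. The list mean, set against the control mean, stood at -0.13, -0.11, -0.01 and -0.12 on the cuprizone arrays and at -0.05, 0.03, 0.07 and -0.04 on the control arrays, so that cuprizone replicate 3 lay among the controls.

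The receptors of vascular growth factors were led by Kdr, VEGF receptor 2, which drives sprouting. Its log2 levels were 6.77, 6.99, 6.87 and 6.96 with cuprizone, against 7.20, 7.23, 7.02 and 7.09 in controls. The groups did not overlap, with cuprizone replicate 2 and control replicate 3 nearest to each other. The difference was -0.24 with a 95% interval from -0.39 to -0.08 (limma adjusted p = 0.0671). Kdr was called lower with each array centred on its median (0.0451) and among clusters with a mean above 6 (0.0442). Flt1, VEGF receptor 1, differed by -0.02 (-0.12 to 0.09). Tek, the receptor of angiopoietins, differed by -0.17 (-0.31 to -0.02, limma adjusted p = 0.174) and its partner Tie1 by -0.07 (-0.19 to 0.04). Eng, endoglin, a coreceptor of TGF-beta and BMP ligands, differed by -0.10 (-0.23 to 0.03).

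None of the adhesion and surface genes of endothelium passed, and Itm2a had the lowest log2 fold change of the 32 genes. Pecam1, an adhesion molecule of endothelial contacts, averaged 7.20 ± 0.06 with cuprizone and 7.20 ± 0.13 in controls (SD, n = 4 each), with a 95% interval of the difference from -0.15 to 0.15. Cdh5, the cadherin of endothelial adherens junctions, differed by -0.12 (-0.28 to 0.05), Esam by -0.01 (-0.15 to 0.12) and Cd34, a sialomucin that blood progenitors also carry, by -0.08 (-0.31 to 0.15). Emcn, endomucin, a sialomucin of veins and capillaries, differed by -0.21 (-0.40 to -0.02, limma adjusted p = 0.188). Itm2a, a membrane protein enriched in brain endothelium, had log2 levels of 8.42, 8.52, 8.87 and 8.38 with cuprizone, against 8.95, 8.82, 9.16 and 8.62 in controls. Replicate 3 was the highest array within each diet, and the groups overlapped (log2 -0.34, 95% interval -0.62 to -0.06, limma adjusted p = 0.144). Without cuprizone replicate 3 Itm2a was called lower (adjusted p = 0.048), and it was called in 2 of 18 alternatives.

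Vwf was the gene of the endothelial identity group above 0. It encodes von Willebrand factor, a clotting protein that endothelial cells store and platelets bind. Its log2 levels were 7.67, 7.75, 7.71 and 7.57 with cuprizone, against 7.55, 7.46, 7.49 and 7.29 in controls. The groups did not overlap, though cuprizone replicate 4 and control replicate 1 were close, and control replicate 4 was the lowest. The difference was 0.23 with a 95% interval from 0.08 to 0.38 (limma adjusted p = 0.0687), and Vwf was called higher when clusters with a mean of 6 or less (0.0455) or below the median cluster (0.0341) were left out. Over all 32 genes the groups did not overlap for 6, of which 4 were higher (Tagln, Cald1, Tjp1 and Vwf) and 2 lower (Kdr and Slco1a4), or 18.8% against 15.3% of all clusters.

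**Figure D3:**
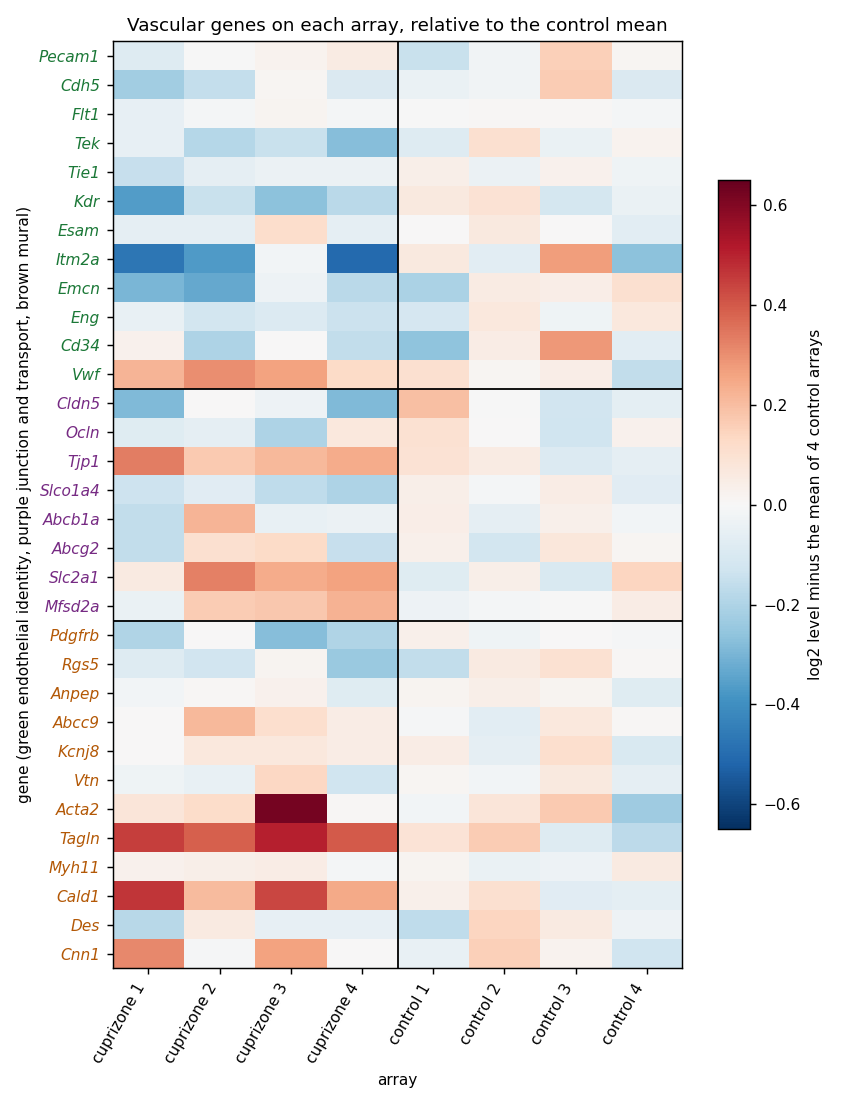
Log2 level of each of the 32 genes on each array minus the mean of the 4 control arrays (colour scale), genes in rows by group and cuprizone arrays left of control arrays. Tagln and Cald1 are red on all 4 cuprizone arrays, Acta2 is darkest on cuprizone replicate 3, and Itm2a is blue on cuprizone replicates 1, 2 and 4.

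Other genes of the vessel wall were taken from lists with the same roles, and each list's share of called genes stands beside the 8.22% of all clusters. Of 37 further endothelial genes 1 was higher and 0 lower (2.7%), with a median of 0.02. That gene was Slfn5, of the Schlafen family, with log2 levels of 7.74, 6.78, 7.69 and 7.11 with cuprizone, against 6.47, 6.54, 6.57 and 6.57 in controls. Its call (limma adjusted p = 0.0194) was lost without cuprizone replicate 3 (0.0598) and without control replicate 1 (0.0561). The cuprizone arrays took the same order for 16 interferon-response genes, whose list mean stood 2.10, 0.44, 2.04 and 1.20 above the control mean on replicates 1 to 4. Their part in Slfn5 or in Cald1 and Cnn1, which were also higher on replicates 1 and 3, was not tested. The mean of 13 choroid plexus genes also parted cuprizone replicates 1 and 3 (-0.55 and -0.47) from 2 and 4 (0.30 and 0.11). Its part was not tested either.

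Of 26 further junction genes 3 rose and 2 fell (19.2%), with a median of 0.06. F11r, the junctional adhesion molecule A of endothelium and epithelium, rose 1.33-fold (log2 0.41 ± 0.07, limma adjusted p = 0.00363), and the angiomotin-like scaffold Amotl1 rose 1.54-fold (0.63 ± 0.13), a call lost when both arrays numbered 2 were left out (adjusted p = 0.0591). Jam3, junctional adhesion molecule C, fell by 0.59 ± 0.10 on the log2 scale. Jup, plakoglobin, fell by 0.24 ± 0.06, and its call was lost when any 1 array other than cuprizone replicate 4 was left out (0.0582 to 0.0943). Of 31 further transport genes 7 rose and 2 fell (29%). Those with the smallest p were both chains of the large neutral amino acid transporter, Slc3a2 (0.82 ± 0.11) and Slc7a5 (0.96 ± 0.14), the insulin receptor Insr (0.36 ± 0.06) and the cationic amino acid transporter Slc7a1 (0.33 ± 0.06). Slc3a2 and Slc7a5 are also made by other brain cells and are known targets of the amino acid stress response.

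Of 38 angiogenic ligands and receptors 4 rose and 2 fell (15.8%, against 8.22% of all clusters), with a median of 0.02. Unc5b, a netrin receptor, had log2 levels of 7.11, 7.53, 7.46 and 7.27 with cuprizone, against 8.85, 8.60, 8.72 and 8.68 in controls, and fell by 1.37 ± 0.09 on the log2 scale (limma adjusted p = 9.14e-06). Apln, the peptide ligand apelin, fell by 0.99 ± 0.12. The TGF-beta receptor Tgfbr1 (0.47 ± 0.07) and the endothelin receptor Ednrb (0.45 ± 0.08) rose. Of 16 genes of the Wnt and norrin pathway, which maintains the barrier, 1 rose (Tnfrsf19, 0.31 ± 0.06) and 1 fell (the feedback inhibitor Nkd1, by 0.44 ± 0.07), 12.5% of the list.

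Among 19 genes linked to activated vessels 8 rose and 0 fell (42.1%, against 8.22% of all clusters), with a median of 0.33. Vcam1, to which leukocytes bind, had log2 levels of 8.92, 8.85, 9.22 and 8.94 with cuprizone, against 8.18, 8.28, 8.27 and 8.30 in controls, and rose 1.65-fold (limma adjusted p = 0.000229). Cd44, the hyaluronan receptor (1.92 ± 0.17), the membrane protein gene Emp1 (1.38 ± 0.13) and the intermediate filament gene Nes (1.82 ± 0.21) rose more. Nes is also in the astrocyte list. Of 40 further mural genes 2 rose and 3 fell (12.5%), with a median of -0.03. Mcam, the adhesion molecule CD146, fell by 0.96 ± 0.07 and Itga1, an integrin subunit for collagen, by 0.26 ± 0.05, while the actin crosslinker Flna (0.72 ± 0.07) and the sphingosine phosphate receptor S1pr3 (0.58 ± 0.06) rose. Of 19 basement membrane genes 2 rose and 0 fell (10.5%), the fibronectin gene Fn1 (0.57 ± 0.05) and the laminin-binding integrin subunit Itga6 (0.39 ± 0.07).

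**Figure D4:**
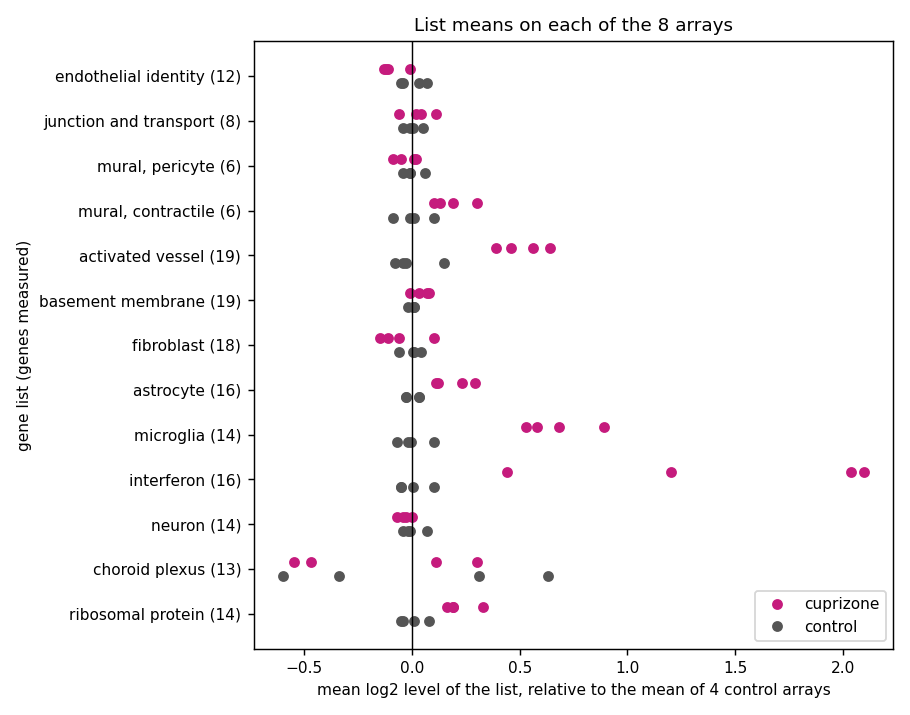
Mean log2 level of each gene list on each of the 8 arrays, relative to the mean of the 4 control arrays (horizontal axis), with cuprizone points above control points. The 4 vascular lists at the top stay between -0.13 and 0.30, whereas the interferon list reaches 2.10 on cuprizone replicate 1. The oligodendrocyte list, at -2.84 to -1.99 on the cuprizone arrays, is not drawn.

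Markers of other cell types were read on the same arrays, since Tjp1, Cald1 and several of the genes above are not particular to vessels. The oligodendrocyte marker list fell on every cuprizone array, with 12 of 12 genes lower and a median log2 fold change of -2.18. Its mean stood at -2.84 to -1.99 on the cuprizone arrays and at -0.15 to 0.08 on the controls. In the astrocyte list 6 of 16 genes rose, among them Nes, Vim (1.74 ± 0.14) and Gfap (0.96 ± 0.06). In the same list 3 genes fell, among them Slc1a2 (-0.60 ± 0.07). Its median change was -0.05, with 8 of the 16 changes below 0. The astrocyte list mean stood at 0.11 to 0.29 on the cuprizone arrays and at -0.03 to 0.03 on the controls. In the microglia list 12 of 14 rose and none fell, with a mean of 0.53 to 0.89 on the cuprizone arrays and of -0.07 to 0.10 on the controls. Ribosomal protein genes rose in 3 of 14 (21.4%), with a median of 0.19 and means of 0.16 to 0.33 with cuprizone and -0.05 to 0.08 in controls. All 14 changes were above 0, and the groups did not overlap for 8 (57.1%, against 15.3% of all clusters). The ribosomal list was chosen with RNA quality in mind, but no measure of RNA integrity was used here. The part of these lists in the changes of Tagln, Cald1 and Tjp1, or of further genes such as Unc5b and Jam3, was not tested. Of 18 fibroblast genes, 13 blood leukocyte genes, 14 neuron genes, 13 choroid plexus genes and 3 red cell genes, 0 were called in limma. In the same order, 3, 0, 1, 0 and 0 of them had an unadjusted p under 0.05 in limma. Beside the counts of this paragraph, 8.22% of all clusters were called (4.71% higher, 3.52% lower) and 20.8% had an unadjusted p under 0.05. In lists this short, 0 calls do not show that the genes were unchanged. The choroid plexus mean spread widely within each diet, from -0.55 to 0.30 with cuprizone and from -0.60 to 0.63 in controls.

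In a principal component analysis of all clusters the diets parted along component 1, which carried 52.22% of the variance, with cuprizone replicate 2 (8.73, against 16.5 to 22.5 for the other cuprizone arrays) and control replicate 2 (-13.2, against -18.6 to -18.1) nearest to each other. Without both, Tagln and Cald1 remained called and Tjp1 did not (adjusted p = 0.0656). Endothelial, pericyte and smooth muscle defining markers were all read on the arrays, but no detection call was used here, so it is not known which stood above background.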

How the data were processed

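Total RNA, 150 ng per sample, from 8 dissected corpora callosa was amplified, labelled and hybridised to Affymetrix Mouse Gene 1.0 ST arrays, per the labels' protocols. The deposited values are log2 levels of 28944 transcript clusters between 2.21 and 14.1, and the submitters' processing notes name RMA, Affymetrix Expression Console and Transcriptome Analysis Console. RMA as published corrects background, quantile normalizes arrays and summarises probes, which hides a change common to most transcripts and shrinks large folds. The genome build, scan dates and detection calls are not given in the sources used here, so no batch was tested. The number of arrays limits the precision.

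Clusters were named by the supplied platform annotation: 21789 had 1 symbol, 1621 several and 5534 none, and 21698 of the first matched a RefSeq gene by Entrez identifier, with 0 renamed. Where a gene had several single-symbol clusters, the one with the highest mean was used. The 23410 clusters with a symbol were fitted with limma (version 3.58.1, R 4.3.3), 2 groups of 4, no covariate, default moderation, two-sided, with Benjamini-Hochberg adjustment over all of them and a threshold of 0.05. Every adjusted p in the text comes from limma. Intervals are the model's 95% intervals, not adjusted. The steps were tested on simulated data, where 53 of 67 changes of 1.5-fold, 66 of 67 of 2-fold and 65 of 66 of 4-fold were recovered. The same data gave 7 false calls. Changes smaller than 1.5-fold were not simulated.

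The genes and lists were chosen with earlier results of these data known, and lists are described by counts and medians. Values on every array are given for called genes and for the 2 genes with the smallest p in each group, and for others shown for their role. From other lists up to 4 called genes with the smallest p were eligible to be named. Promoter windows came from a RefSeq table on GRCm38.p6, matched by symbol. Alternatives were a replicate block, leaving out each array, another variance prior, quantile normalization again, median centring, 2 filters on dim clusters, all clusters, 1 cluster per gene and array weights. Leaving out both arrays numbered 2 was added after the data were seen.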

Additional observations from a re-analysis of the deposited data

Results flagged for a closer look

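In 3 groups of 4 arrays, of 64 examined, 1 array stood far from the other 3 of its diet, where chance flags about 1 in 20. Acta2 had a log2 level of 9.71 on cuprizone replicate 3, against 9.10 to 9.21 on the other cuprizone arrays. Esam, an endothelial adhesion molecule, stood at 8.15 on the same array, against 7.98 on each of the others. Tie1 stood at 7.30 on cuprizone replicate 1, against 7.39 to 7.41 on the others.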

How the results depend on the processing

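Of 564 values of the 32 genes under the alternatives, 523 kept their direction and their side of the threshold. Leaving out 1 array at a time gave 795 to 1122 clusters higher and 609 to 741 lower over all clusters. It gave 0 endothelial identity genes higher and 0 to 1 lower, 0 to 1 junction and transporter genes higher and 0 lower, and 1 to 2 mural genes higher and 0 to 1 lower. With the replicate number as a block, 892 clusters were higher and 636 lower, 1 endothelial identity gene was lower (Itm2a, adjusted p = 0.0259) and 0 junction and transporter genes were higher (Tjp1, 0.0586). Over all clusters, the deviations of arrays with the same number from their group means correlated at -0.19 to 0.21, which does not settle whether they were paired. The choroid plexus mean was lower on replicates 1 and 3 than on 2 and 4 in both diets. It stood at -0.55, 0.30, -0.47 and 0.11 with cuprizone and at -0.34, 0.31, -0.60 and 0.63 in controls. Whether arrays with the same number were handled together was not tested. Centring each array on its median gave 1 endothelial identity gene lower (Kdr) and 0 junction and transporter genes higher. Among clusters with a mean above 6, 1 endothelial identity gene was higher (Vwf) and 1 lower (Kdr). Among clusters above the median cluster 1 endothelial identity gene was higher (Vwf), and 1 mural gene was higher, Tagln not being tested there. Without both arrays numbered 2, 0 junction and transporter genes were higher.

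Signs turned only for changes near 0. Leaving out 1 array, the log2 change lay between -0.05 and 0.05 for Pecam1, -0.06 and 0.00693 for Esam, -0.17 and 0.01 for Cd34, -0.08 and 0.04 for Abcb1a, -0.07 and 0.02 for Abcg2, -0.04 and 0.00807 for Anpep, -0.06 and 0.02 for Vtn and -0.05 and 0.09 for the red cell gene Alas2. Esam stood at 0.02 without both arrays numbered 2, and array weights gave 0.00748 for Abcb1a and -0.00261 for Alas2. Where a call changed with an array left out, the cause was not tested. No alternative used a second cluster per gene, because each gene had 1. Signal over background is not known, so a change of a dim gene may be understated.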
